A study of Trichoderma reesei with 12 samples.

Results

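The genes described here are the 154 gene models of Trichoderma reesei, a cellulose-degrading filamentous fungus, whose transcripts were much less abundant in constant light than in constant darkness both in a strain without the kinase gene tmk3 and in its parent. They were chosen from the counts themselves. A gene was taken when its highest group mean reached 10 CPM, a count scaled to the size of its library, and when its mean CPM in light, with 1 added, was at most 0.2 of that in darkness in each strain. Genes with a 15-fold or wider spread among the dark parent libraries were left out, as were identifiers within 50 numbers of either end of their series. The 154 genes were 1.42% of the 10879 identifiers counted and 2.25% of the 6842 that met the conditions on level, spread and series end. Differences between light and darkness within a strain are therefore given as descriptions without a test. The differences between the strains were not themselves used in the choice and were tested, although on the same libraries.

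RNA came from mycelium grown for 96 h with cellulose as the carbon source, and 4 groups of 3 libraries each were sequenced. They were QM6a-delta-ku80-delta-tmk3 (Δku80Δtmk3, the deletion strain) in constant light, QM6a-delta-ku80 (Δku80, the parent) in constant light, and the same pair of strains in constant darkness. All 4 groups lack ku80, a gene of DNA end joining that is commonly removed to ease gene targeting, and the labels give the genotype of the parent as WT. No complemented strain was among the samples, and the number of transformants behind the deletion strain is not given in the sources used here, so loss of tmk3 and other differences between the strains cannot be told apart.

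In T. reesei, blue light is sensed by the photoreceptor proteins BLR1 and BLR2 and the regulator ENV1, and light influences conidiation, cellulase genes and secondary metabolism. TMK3 is the fungus's counterpart of the yeast kinase Hog1, which is best known for the response to high osmolarity. In Aspergillus nidulans, the corresponding pathway also carries light signals from a phytochrome. The identifiers in the count table consist of a series letter, a running number and W or C for the strand, and 0 of the 10879 were found in a RefSeq gene table with 9116 entries, so no member can be given a gene name or a role. For the same reason, the tmk3 transcript itself was not checked here.

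The 12 libraries held between 11599300 and 17702344 counts, so that 3 counts corresponded to between 0.169 and 0.259 CPM, counting error only. Parent dark library 2 had the lowest scaling factor, 0.761, against factors of up to 1.11 in the others. Counts differed between replicates well beyond sampling noise in every pair, with a chi-square per degree of freedom of at least 12.4, and every library was counted as a replicate. Whether the replicates were separate cultures is not stated in the labels, and the p-values below therefore reflect the spread between these libraries alone, which may be technical.

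A light library of each strain stood apart in the genes chosen. In light, deletion library 1 was the highest of its group for 101 of the 154 genes (65.6%), against 33.9% of the 6842 genes eligible for the choice, and parent library 2 was the highest of its group for 119 (77.3%), against 40.6%. The median gene of the set lay 0.36 (log2) above the mean of the other libraries in deletion light library 1 and 0.43 above it in parent light library 2. In darkness, parent library 2 was the lowest of its group for 91 genes (59.1%) and the highest for 51 (33.1%). These shares were near the 51.6% and 36.4% of the eligible genes. On CPM by column total, used for the choice, this library was lowest for 65.6% of the set and 69.2% of the eligible genes. The spread among replicates was wide for the set in all 4 groups. The median coefficient of variation was 43.4% in Δku80Δtmk3 and 43.0% in Δku80 in light, where it was 6.05% and 10.9% over the eligible genes, and 21.4% in Δku80Δtmk3 and 43.5% in Δku80 in darkness, where it was 10.3% and 19.3%.

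**Figure D1:**
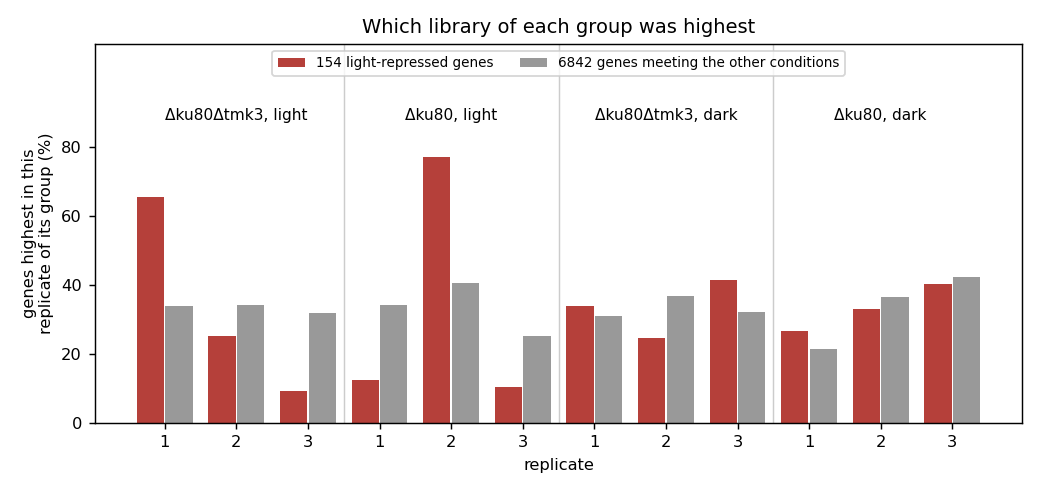
Percent of genes (y axis) that were highest in each library (x axis, replicate within group) among the 3 libraries of its group, for the 154 light-repressed genes (red) and the 6842 eligible genes (grey). In light, deletion library 1 (65.6%) and parent library 2 (77.3%) held the highest value for most of the 154 genes.

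In light, the 154 genes together took 0.608%, 0.352% and 0.31% of the counts in the Δku80Δtmk3 libraries and 0.129%, 0.228% and 0.147% in the Δku80 libraries. In darkness they took 3.59%, 3.43% and 3.59% in Δku80Δtmk3 and 5.89%, 6.42% and 6.45% in Δku80. The parent thus had both the lowest share of counts in light and the highest share in darkness, and the libraries of the strains did not overlap in either condition. TrC1166C alone made up much of the dark difference: without it, the dark shares were 3.49%, 3.41% and 3.57% in Δku80Δtmk3 and 4.54%, 5.11% and 4.74% in Δku80. In light, TrB1588C alone held 24205, 11366 and 7846 of the set's 70503, 44413 and 36654 counts in the Δku80Δtmk3 libraries. In the Δku80 light libraries it held 908, 2483 and 1235 of 22923, 32334 and 19424. In a bulk sample, fewer hyphae with a transcript and less transcript in each hypha cannot be told apart.

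**Figure D2:**
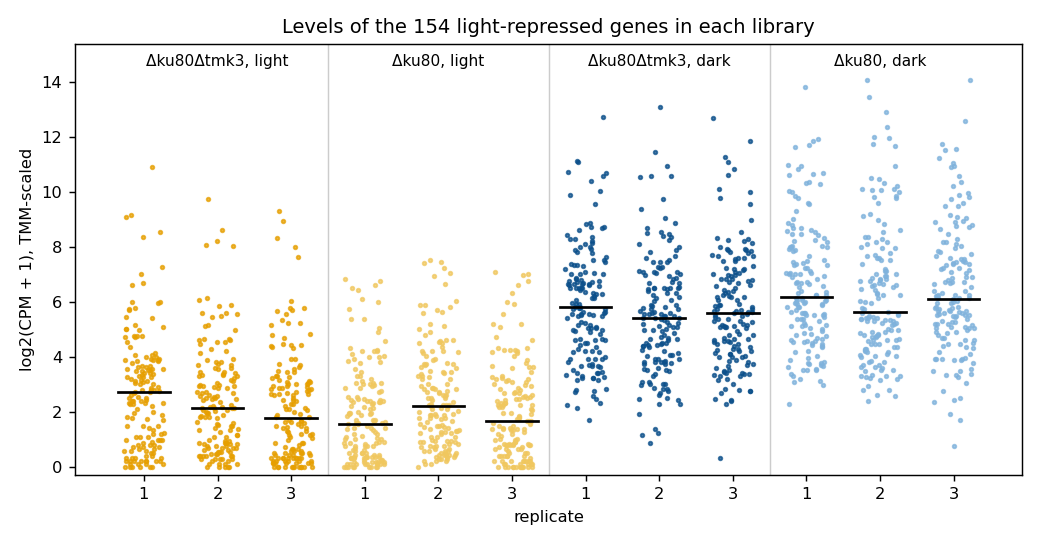
Level of each of the 154 genes (points) in each of the 12 libraries (x axis, replicates within groups), as log2 of CPM plus 1 from TMM-scaled library sizes (y axis), with the median as a black line. Levels in light lie well below those in darkness in both strains by construction of the set.

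By the ratio used for the choice, the difference between light and darkness was wider in the parent for most of the genes. The ratio of light to dark means, as used for the choice, had a median of 0.109 (0.00995 to 0.198) in Δku80Δtmk3 and 0.069 (0.00286 to 0.194) in Δku80. It was at most 0.05 for 21 genes in Δku80Δtmk3 and 57 in Δku80, and at most 0.02 for 6 and 24 genes. The ratio was lower in the parent for 100 genes and lower in the deletion strain for 54. The 24 genes with a parent ratio of at most 0.02 had ratios between 0.0178 and 0.186 in Δku80Δtmk3, with a median of 0.0871.

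Some genes were nearly unread in light. The median gene of the set had between 29.5 and 69.5 counts per Δku80Δtmk3 light library and between 28 and 52 per Δku80 light library, against 658.5 to 835.5 per Δku80Δtmk3 dark library and 585 to 1040.5 per Δku80 dark library. TrA1877C had 0 counts over the 3 Δku80Δtmk3 light libraries and 273 over the dark ones, so that its level was at least 73.9-fold lower in light, taking a floor of 3 counts over the group. TrD0975C had 0 counts in Δku80 light and 313 in Δku80 darkness, which made it at least 115-fold lower in light. TrF0715W was low in light in both strains, with 2 counts in Δku80Δtmk3 light against 1393 in darkness and 3 counts in Δku80 light against 762 in darkness. Its dark-over-light ratio was 566 in Δku80Δtmk3 (95% exact Poisson interval 157 to 4673) and 281 in Δku80 (96.1 to 1362), intervals that cover counting error only.

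The limit of 0.2 was close for a few genes. TrG0124W (0.198 in Δku80Δtmk3 and 0.126 in Δku80) and TrE0587W (0.196 and 0.135) lay just inside it. TrG0832W (0.201 in Δku80Δtmk3 and 0.00495 in Δku80) and TrD1202W (0.124 in Δku80Δtmk3 and 0.201 in Δku80) lay just outside. TrG0832W was left out for its ratio in the deletion strain alone, and TrD1202W for its ratio in the parent alone.

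In light, where the set is low in both strains, more of it was higher without tmk3 than lower. With edgeR's quasi-likelihood test and Benjamini-Hochberg adjustment over all 8998 genes tested, 48 of the 154 genes (31.2%) were higher in Δku80Δtmk3 than in Δku80 at an adjusted p below 0.05, against a background of 10.8% of all genes tested. A further 19 genes (12.3%) were lower, against a background of 9.78%. Together 67 genes passed in either direction, against 20.5% of all genes tested, and 87 did not. All 154 genes were among those tested. The median log2 fold change of Δku80Δtmk3 over Δku80 was 0.36 for the set and 0.00 over all genes tested. The choice of genes used the same light libraries, and the whole table was under no such bound. Nothing is therefore read from these background shares about the set. Without deletion light library 1, 53 genes passed in place of 67, and without parent light library 2, 59 passed.

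Where the average log2 CPM was 3 or more and the libraries of the strains did not overlap, the largest called rises in light were in genes with few parent counts there. TrA1955C had 13.4, 8.76 and 7.7 CPM in Δku80Δtmk3 light and 0.405, 0.279 and 0.549 CPM in Δku80 light, a log2 fold change of 4.58 with an SE of 0.74 (edgeR adjusted p = 0.00132). TrB1903W had 13.3, 2.84 and 5.27 CPM in Δku80Δtmk3 light and 0.116, 0.698 and 0.0784 CPM in Δku80 light, a log2 fold change of 4.56 with an SE of 0.80 (edgeR adjusted p = 0.00214). The strains did not overlap for either gene. The size for TrB1903W moved with single libraries, to 3.74 without deletion light library 1 and 6.04 without parent light library 2. In darkness neither gene passed the test, with log2 fold changes of 0.90 (adjusted p = 0.185) for TrA1955C and 1.10 (adjusted p = 0.115) for TrB1903W by the same edgeR test. Each passed without 1 parent dark library. The dark fold change of TrA1955C was 1.99 (edgeR adjusted p = 0.000641) without parent dark library 2, and that of TrB1903W was 1.54 (edgeR adjusted p = 0.0414) without parent dark library 3.

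The largest falls by the same criteria were those of TrA1544W and TrA1889C. TrA1544W had 0.316, 0.225 and 0.405 CPM in Δku80Δtmk3 light and 8.8, 8.03 and 8.08 CPM in Δku80 light, a log2 fold change of -4.69 with an SE of 0.39 (edgeR adjusted p = 1.72e-05). In darkness it had 7.8, 7.38 and 5.7 CPM in Δku80Δtmk3 and 60.7, 31.7 and 75.4 CPM in Δku80, a log2 fold change of -3.01 with an SE of 0.29 (edgeR adjusted p = 2.76e-05). Every light library of the parent lay above every dark library of the deletion strain on this scale, which held for 0 other genes of the set. On CPM by column total these groups overlapped, with 8.59, 8.1 and 7.81 CPM in Δku80 light and 8.38, 8.18 and 6.06 CPM in Δku80Δtmk3 darkness. TrA1889C was lower to a like extent in both conditions, with 1.11, 1.2 and 0.243 CPM in Δku80Δtmk3 light and 6.19, 8.87 and 5.41 CPM in Δku80 light (log2 fold change -2.98, SE 0.56, edgeR adjusted p = 0.00314). In darkness it had 11.6, 7.06 and 5.98 CPM in Δku80Δtmk3 and 75.1, 26.7 and 75.4 CPM in Δku80 (log2 fold change -2.85, SE 0.47, edgeR adjusted p = 0.000855).

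In darkness, where the set is abundant, the balance between the strains was the other way round. By the same test, 63 of the 154 genes (40.9%) were lower in Δku80Δtmk3 than in Δku80, against a background of 21.6% of all genes tested, and 25 (16.2%) were higher, against a background of 19.1%. Together 88 genes passed in either direction, against 40.7% of all genes tested, and the remaining 66 did not. The share of genes that rose was thus near the background, whereas the share that fell was above it. The choice of genes used the same dark libraries, and the whole table was under no such bound. Nothing is therefore read from these shares about the set. The difference was at least 2-fold for 58 of the genes that fell and 23 of those that rose. No share of all genes tested is given at that size. These counts therefore do not show whether large differences were particular to the set. The median log2 fold change was -0.66 for the set and -0.07 over all genes tested, and single genes lay between -5.41 and 4.36. Of the 24 genes with a parent light to dark ratio of at most 0.02, 21 were lower in Δku80Δtmk3 in darkness and 0 were higher. With 1 CPM added, only genes with a high parent dark level can reach that ratio. TrF0715W, with a dark-over-light ratio of 281 by counts in Δku80, had a parent ratio of 0.0585. The ratio and the strain difference also share the parent dark libraries, so the overlap is given as a count only.

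Several of the falls in darkness were very large. TrC1166C, which took more counts than any other gene of the set, had 942, 135 and 229 CPM in Δku80Δtmk3 darkness and 14551, 17229 and 17489 CPM in Δku80 darkness, a log2 fold change of -5.24 with an SE of 1.11 (edgeR adjusted p = 0.00382). TrG0220C had 48.1, 30.7 and 55.3 CPM in Δku80Δtmk3 darkness and 1277, 3983 and 442 CPM in Δku80 darkness, a log2 fold change of -5.41 with an SE of 0.79 (edgeR adjusted p = 0.000437). TrE0662C had 427, 52.7 and 40.2 CPM in Δku80Δtmk3 darkness and 3896, 11217 and 6108 CPM in Δku80 darkness, a log2 fold change of -5.35 with an SE of 1.09 (edgeR adjusted p = 0.00298). In all 3 genes the lowest parent library was at least several times higher than the highest deletion library. The size moved with 1 library in each. Without deletion dark library 1 the log2 fold change was -6.49 for TrC1166C and -7.25 for TrE0662C, and without parent dark library 2 it was -4.25 for TrG0220C.

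Deletion dark library 1 was the high one for most of the genes with large falls. Of the 21 genes lower by at least 8-fold in darkness, it held the highest value of its group for 18. It did so for 31.0% of the eligible genes, 33.8% of the set and 44.4% of the genes of the set that fell in darkness. The median of the 21 genes had 8.68% of the parent mean in it, against 1.61% and 2.03% in deletion dark libraries 2 and 3. The same library also stood out in 9 identifiers outside the set that were near 0 in the deletion strain, at 6.8% of the parent level, against 0.526% and 1.62% in the other dark libraries of that strain. The part of this library in the results was not tested beyond leaving it out, and without it 79 genes of the set passed the test in darkness in place of 88. Without parent dark library 2, 93 passed. The count of 21 genes lower by at least 8-fold is likewise given without a share of all genes tested.

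TrD0165W and TrD0248C had the largest rises in darkness and rose in light as well. TrD0165W had 110, 135 and 113 CPM in Δku80Δtmk3 darkness and 8.04, 4.94 and 4.43 CPM in Δku80 darkness, a log2 fold change of 4.36 with an SE of 0.45 (edgeR adjusted p = 4.86e-05). In light it had 5.93, 3.14 and 1.13 CPM in Δku80Δtmk3 and 0.174, 0.0698 and 0.314 CPM in Δku80, a log2 fold change of 4.17 with an SE of 0.67 (edgeR adjusted p = 0.00134). The strains were fully apart in both conditions, although the light fold change was 3.51 without deletion light library 1. TrD0248C had 762, 676 and 874 CPM in Δku80Δtmk3 darkness and 65.5, 28.6 and 33.1 CPM in Δku80 darkness, a log2 fold change of 4.18 with an SE of 0.64 (edgeR adjusted p = 0.000564). In light it had 154, 65.9 and 39.9 CPM in Δku80Δtmk3 and 2.08, 11.1 and 6.59 CPM in Δku80 (log2 fold change 3.72, SE 0.64, edgeR adjusted p = 0.00188), which became 3.01 without deletion light library 1 and 4.34 without parent light library 2. The gap between light and darkness in each strain was required of both genes by the choice.

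TrB1588C took the most counts among the genes that rose in darkness. It had 6861, 8870 and 6712 CPM in Δku80Δtmk3 darkness and 1316, 583 and 577 CPM in Δku80 darkness, a log2 fold change of 3.18 with an SE of 0.54 (edgeR adjusted p = 0.00108). In light it had 1915, 851 and 636 CPM in Δku80Δtmk3 and 52.6, 173 and 96.9 CPM in Δku80, a log2 fold change of 3.40 with an SE of 0.55 (edgeR adjusted p = 0.00133) that was 2.79 without deletion light library 1. Its mean in Δku80Δtmk3 light, 1134 CPM, was above its mean in Δku80 darkness, 825 CPM, although the libraries overlapped. TrD0248C and TrE0579W, the second of which was picked after its values were seen, showed the same order of means, also with overlap. Deletion light library 1 was the highest of its group for 23 of the 25 genes that rose in darkness (92.0%). It was the highest for 47.6% of those that fell in darkness and 72.7% of those without a dark call. The shares were 65.6% for the whole set and 33.9% for the eligible genes.

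Gene by gene, the strain difference often passed the test in 1 condition alone. Of the 25 genes that rose in darkness, 23 (92.0%) also rose in light and 0 fell, where 34.9% of the 1723 genes that rose in darkness over the whole table also rose in light and 4.76% fell. Of the 63 that fell in darkness, 15 (23.8%) also fell in light, a share close to the 22.9% of the 1941 such genes over the whole table, 43 did not pass there and 5 (7.94%) rose, against 3.04%. Of the 66 without a call in darkness, 20 (30.3%) rose in light, against 5.77% of the 5334 such genes over the whole table, 4 fell and 42 passed in neither. These shares were not tested against each other. The choice of genes bounded the light to dark ratio in both strains, which ties the strain difference in light to that in darkness. The genes of the whole table were under no such bound, so nothing is read from these shares about the set. Passing in one condition and not in the other does not show that the conditions differ, and the difference itself is tested by the interaction.

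**Figure D3:**
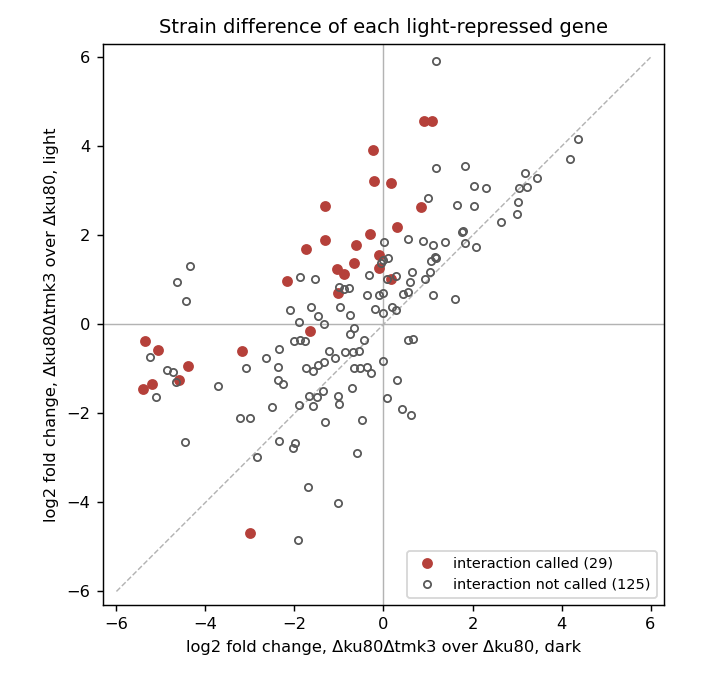
Log2 fold change of Δku80Δtmk3 over Δku80 for each of the 154 genes in darkness (x axis) and in light (y axis), with the dashed line where both are equal and the 29 genes with a called interaction filled. The called genes lie above the line except TrA1544W, at -3.01 in darkness and -4.69 in light.

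The interaction, the strain difference in light minus that in darkness, was positive at an adjusted p below 0.05 for 28 genes (18.2%), against a background of 6.39% of all genes tested. It was negative for 1 gene (0.649%), TrA1544W, against a background of 7.71%. Together these were 29 genes, against 14.1% of all genes tested in either direction. A positive value means a smaller gap between light and darkness in the deletion strain. The choice of genes required a gap in both strains, so it bounded the contrasts from which the interaction is built, and nothing is read from these counts about the set. The median interaction was 0.79 for the set and 0.05 over all genes tested. Of the 28 genes, 15 were lower in Δku80Δtmk3 in darkness, 12 had no dark call and 1 was higher. Only 12 of the 29 calls held in each of the 12 fits that left out 1 library, and the count ranged from 12 without parent light library 3 to 46 without parent dark library 2.

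At an average log2 CPM of 3 or more, TrE0662C had the largest called interaction. In light it had 13.9, 23.4 and 14.3 CPM in Δku80Δtmk3 and 10.9, 49.1 and 6.9 CPM in Δku80, where the strains overlapped (log2 fold change -0.37, edgeR adjusted p = 0.825). With the dark fall, the interaction was 4.98 (SE 1.36, edgeR adjusted p = 0.0337), and 7 of the 12 single-library omissions took it past 0.05, to between 0.0583 and 0.0851. It was 6.88 without deletion dark library 1, 6.3 without parent light library 2 and 4.43 in the omission with the lowest value. TrA1372C was steadier in the parent, where its dark libraries were nearly equal, with 112, 21.2 and 38.1 CPM in Δku80Δtmk3 darkness and 1828, 1965 and 1932 CPM in Δku80 darkness (log2 fold change -5.07, SE 0.75, edgeR adjusted p = 0.000476). In light it had 7.67, 6.89 and 2.51 CPM in Δku80Δtmk3 and 4.52, 16.8 and 4.31 CPM in Δku80, and its interaction of 4.48 (SE 0.97, edgeR adjusted p = 0.0113) held in all 12 omissions. Its dark fold change was -6.01 without deletion dark library 1, and its interaction was 5.42 without that library and 5.43 without parent light library 2. TrC1166C had a like pattern without a call, with an interaction of 4.5 (edgeR adjusted p = 0.0524), and 42.2, 43.0 and 7.05 CPM in Δku80Δtmk3 light against 15.5, 123 and 15.2 CPM in Δku80 light. Its interaction passed in 4 of the 12 omissions, at 6.24 (edgeR adjusted p = 0.0113) without parent light library 2, at 5.75 (adjusted p = 0.0263) without deletion dark library 1, at 4.97 (adjusted p = 0.0431) without deletion light library 3 and at 4.42 (adjusted p = 0.0467) without parent dark library 2. For these 3 genes parent light library 2 was the highest light library, and their light fold changes turned from negative to positive without it, none of them passing the test either way.

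TrC1208W and TrD0360W were higher in Δku80Δtmk3 in light, and their calls in darkness turned on single libraries. TrC1208W had 540, 395 and 498 CPM in Δku80Δtmk3 light and 96.3, 182 and 135 CPM in Δku80 light (log2 fold change 1.79, SE 0.31, edgeR adjusted p = 0.00197). In darkness it had 2222, 1971 and 3698 CPM in Δku80Δtmk3 and 3715, 5331 and 3042 CPM in Δku80, which overlapped (log2 fold change -0.62, edgeR adjusted p = 0.125), and its interaction was 2.41 (SE 0.43, edgeR adjusted p = 0.00426). Without deletion dark library 3 it was called lower in darkness, at -0.94 (edgeR adjusted p = 0.036). TrD0360W had 103, 70.5 and 64.7 CPM in Δku80Δtmk3 light and 8.86, 21.9 and 6.98 CPM in Δku80 light (log2 fold change 2.66, SE 0.51, edgeR adjusted p = 0.00356). The strains were fully apart in light for both genes. In darkness TrD0360W had 1687, 1518 and 2195 CPM in Δku80Δtmk3 and 3217, 7709 and 2439 CPM in Δku80, a fall at the edge of the threshold (log2 fold change -1.31, SE 0.48, edgeR adjusted p = 0.0485) that was -0.63 (adjusted p = 0.212) without parent dark library 2 and was lost in 8 of the 12 omissions. Its light fold change was 3.32 without parent light library 2. Its interaction of 3.97 (SE 0.70, edgeR adjusted p = 0.00373) held in all 12 omissions, between 3.27 without parent dark library 2 and 4.63 without parent light library 2, and that of TrC1208W held in all 12 as well.

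**Figure D4:**
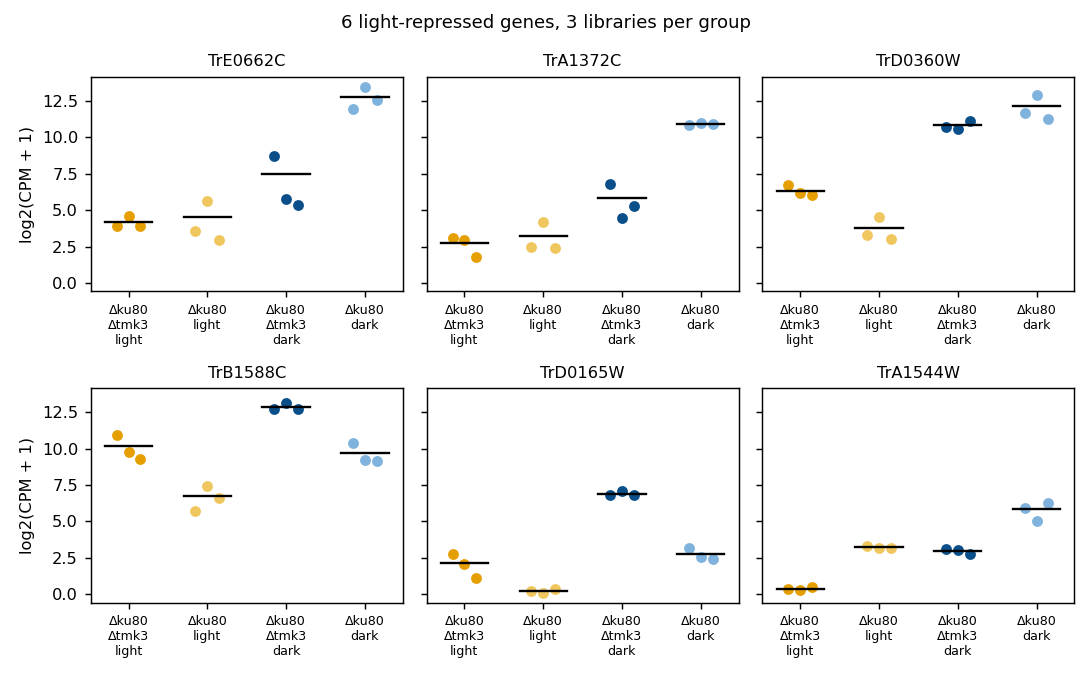
Levels of 6 of the genes as log2 of CPM plus 1 (y axis) in the 4 groups (x axis), with 1 point per library and the log2 of the group mean plus 1 as a line. TrE0662C and TrA1372C differ between the strains in darkness, TrD0360W more widely in light, TrB1588C and TrD0165W are higher without tmk3 in both conditions, and TrA1544W is lower in both.

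TrD0360W was 1 of 5 genes that were lower in Δku80Δtmk3 in darkness and higher in light, which was 3.25% of the set, against 0.656% of all genes tested. The choice of genes bounded both of the light differences behind this pattern, so nothing is read from that share about the set. All 5 had a called interaction, which is built from the same dark and light differences. The others, named after their values were seen, were TrA0631C, TrE0539W, TrE0630C and TrG0359C. TrE0630C had the tightest replicates, with 1534, 1527 and 1854 CPM in Δku80Δtmk3 darkness and 3336, 3326 and 3439 CPM in Δku80 darkness (log2 fold change -1.04, SE 0.17, edgeR adjusted p = 0.000996). In light it had 377, 271 and 321 CPM in Δku80Δtmk3 and 108, 168 and 130 CPM in Δku80 (log2 fold change 1.25, SE 0.18, edgeR adjusted p = 0.000585). It thus spanned a smaller range in the deletion strain from both ends. TrE0539W had dark and light log2 fold changes of -1.74 and 1.70, TrA0631C of -1.32 and 1.89, and TrG0359C of -0.89 and 1.14, each called by edgeR in both conditions. Single libraries ended some of these calls. For TrA0631C, the dark fold change was -0.67 (edgeR adjusted p = 0.112) without parent dark library 2, the dark call was also lost without deletion dark library 1 or 2 (adjusted p = 0.094 and 0.104), and the light call without parent light library 1 or 3 (adjusted p = 0.0526 and 0.0829). For TrE0539W, the light call was lost without parent light library 3 (edgeR adjusted p = 0.0511), and the light fold change was 2.29 without parent light library 2. For TrG0359C, the dark call was lost without deletion dark library 2 or 3 (edgeR adjusted p = 0.0525 and 0.061), and the light call without deletion light library 1 or parent light library 1 (adjusted p = 0.0522 and 0.0574). The calls of TrE0630C were kept in every omission.

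By identifier, the genes were spread over all 7 letter series, with 38 in A, 27 in B, 17 in C, 21 in D, 24 in E, 13 in F and 14 in G, which was between 1.63% (C) and 2.85% (E) of the eligible identifiers of a series. They were on both strands, with 73 ending in W and 81 in C. Genes with consecutive numbers were taken to be neighbours, which the running numbers imply but no coordinates in the table show. The set held 15 pairs with consecutive numbers, and 28 genes (18.2%) had another gene of the set as a direct neighbour. The same share was 22.2% of the 180 genes that met the ratio in the parent only, 13.3% of the 105 that met it in the deletion strain only and 14.3% of the 56 genes at least 5-fold higher in light in both strains. Such a share tends to rise with the number of genes in a set, so sets of unlike size are not ranked by it. Of the 15 pairs, 8 (53.3%) had a C gene followed by a W gene, an arrangement found in 29.2% of the 10169 consecutive pairs outside the series ends. The same arrangement made up 47.6% of 21 pairs among the genes that met the ratio in the parent only and 85.7% of 7 pairs among those that met it in the deletion strain only. These shares rest on few pairs and were not tested.

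In 12 of the 15 pairs both genes had a dark fold change of the same sign, against 54.4% of 7376 consecutive pairs of tested genes. Both genes fell in 6 pairs (40%), against 6.16% of those consecutive pairs, but 3 of the 6 came from the single run described next. Both rose in 0 pairs, against 5.37%, and neither passed in 4 pairs (26.7%), against 38.3%. The set as a whole held more genes that fell, 40.9% against 21.6% of all genes tested, so these shares do not isolate position. TrC0324W and TrC0325W were the exception with opposite calls. TrC0324W was higher in Δku80Δtmk3 darkness (log2 fold change 1.78, edgeR adjusted p = 0.00343) and TrC0325W was lower (log2 fold change -1.66, edgeR adjusted p = 0.001). This pair was named after its values were seen. Reads of overlapping neighbours cannot be assigned with certainty, since the strand setting of the counting is not given in the sources used here.

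The longest run was TrE0659C, TrE0660W, TrE0661W and TrE0662C, and with 3 further genes the stretch from TrE0659C to TrE0671C held 7 of the set in 13 numbers. All 4 genes of the run fell in darkness. TrE0659C had 217, 33.4 and 38.5 CPM in Δku80Δtmk3 darkness and 1586, 3494 and 1005 CPM in Δku80 darkness (log2 fold change -4.40, SE 0.76, edgeR adjusted p = 0.00113). TrE0660W had 257, 15.3 and 22.8 CPM in Δku80Δtmk3 darkness and 1992, 4126 and 1331 CPM in Δku80 darkness (log2 fold change -4.66, SE 1.05, edgeR adjusted p = 0.00548). TrE0661W had 17.6, 1.34 and 0.228 CPM in Δku80Δtmk3 darkness and 102, 376 and 69.1 CPM in Δku80 darkness (log2 fold change -4.86, SE 1.23, edgeR adjusted p = 0.00991). Deletion dark library 1 was the highest deletion library for all 4 and parent dark library 2 the highest parent library for all 4. Without deletion dark library 1 the fold changes were -5.82 for TrE0659C, -7.02 for TrE0660W and -7.88 for TrE0661W, and without parent dark library 2 they were -3.73, -4.06 and -3.76, all still called.

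The stretch continued past the run with genes that did and did not meet the rule. TrE0663W, between the run and TrE0664C, met the ratio in the parent only, at 0.525 in Δku80Δtmk3 and 0.0384 in Δku80. Its mean in light was 35.1 CPM in Δku80Δtmk3 and 35.3 CPM in Δku80, and its mean in darkness was 66.7 CPM in Δku80Δtmk3 and 1109 CPM in Δku80, a gap between the strains in darkness alone by these means. TrE0664C had 48.5, 1.59 and 3.87 CPM in Δku80Δtmk3 darkness and 254, 1076 and 106 CPM in Δku80 darkness. TrE0671C had 147, 26.8 and 60.3 CPM in Δku80Δtmk3 darkness and 2015, 1106 and 1968 CPM in Δku80 darkness. In light TrE0671C was present in some replicates only, at 11.6, 6.29 and 0 CPM in Δku80Δtmk3 and 0, 12.5 and 0 CPM in Δku80. The densest stretch of the set was elsewhere, with 10 genes between numbers 1877 and 1911 of series A, TrA1889C among them. Both stretches were chosen after the values were seen.

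**Figure D5:**
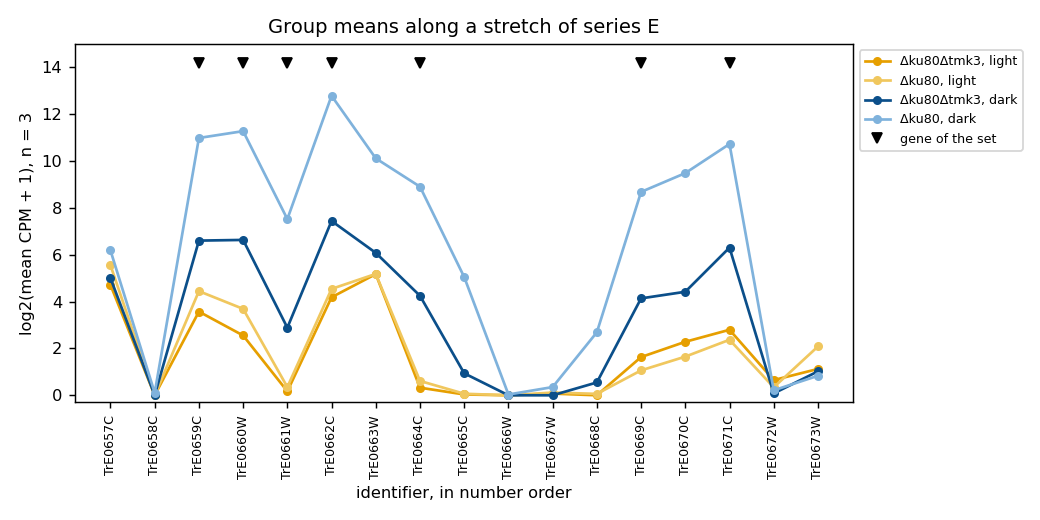
Log2 of mean CPM plus 1 (y axis, n = 3 libraries) in the 4 groups for consecutive identifiers around TrE0659C to TrE0671C (x axis, in number order), with triangles over the 7 genes of the set. At the marked genes Δku80Δtmk3 darkness and both light groups lie far below Δku80 darkness.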

How the data were processed

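The authors deposited whole-number read counts per gene model, not normalized. Per the submitters' processing notes the reads went through HISAT2 2.2.1, and per the labels' protocols the libraries were stranded and depleted of rRNA. How the counting treated strand is not given in the sources used here. All 12 columns were assigned by title, and 0 remained unassigned.

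The analysis used edgeR 4.0.16 in R 4.3.3 with filterByExpr (8998 genes kept), TMM scaling, 1 fit of 4 group means to all 12 libraries, quasi-likelihood F tests and Benjamini-Hochberg adjustment over all genes, called below 0.05. Levels are CPM from TMM-scaled library sizes. The SE was taken as the size of the log2 fold change over the root of F, which is unreliable near 0 counts. The genes were chosen in Python 3.11.15 from CPM by column total with a pseudocount of 1. The procedure was tested on simulated data with the same coefficient of variation for every gene and group. The unequal spreads of these data were thus not covered. Alternatives were DESeq2 1.42.0, other scalings, no filter, single-library omissions and a replicate term. Replicate numbers did not pair the libraries (correlation of deviations between -0.37 and 0.12).

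The members and lists were chosen with earlier results of these data known. Genes named by rule were the 5 with the highest dark level, the 2 largest called rises and falls per contrast (mean log2 CPM of 3 or more, libraries not overlapping except for the interaction), the genes at the ratio limit and the longest run of numbers. Others were named after their values were seen.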

Additional observations from a re-analysis of the deposited data

Results flagged for a closer look

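The choice of genes bounded both of the light differences from which each interaction is built, so the count below is a description and nothing is read from it about the set. By edgeR's interaction test the strain difference differed between light and darkness for 29 of the 154 genes (18.8%), against 14.1% of all genes tested. Among the genes named with their own values, the calls that held in all 12 fits leaving out 1 library were those of TrA1372C (log2 interaction 4.48), TrD0360W (3.97), TrE0539W (3.43, edgeR adjusted p = 0.0025), TrA0631C (3.21, adjusted p = 0.00725), TrC1208W (2.41), TrE0630C (2.29, adjusted p = 0.000325) and TrG0359C (2.03, adjusted p = 0.00507). The other calls were lost in some of these fits. TrE0662C (4.98, edgeR adjusted p = 0.0337) was lost in 7 of the 12. TrG0220C (3.95, adjusted p = 0.0349) was lost in 7, and was 2.89 (adjusted p = 0.18) without deletion light library 2 and 2.76 without parent dark library 2. TrA1955C (3.68, adjusted p = 0.0221) was lost in 5, and was 2.57 without parent dark library 2. TrB1903W (3.46, adjusted p = 0.0388) was lost in 9, with values from 2.64 without deletion light library 1 to 4.94 without parent light library 2. TrE0659C (3.46, adjusted p = 0.0374) was lost in 10, with values from 2.78 without parent dark library 2 to 4.88 without deletion dark library 1. TrC0325W (1.52, adjusted p = 0.0299) was lost in 7. TrA1544W (-1.68, adjusted p = 0.0455), the only negative call, was lost in 10.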

How the results depend on the processing

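Counts of called genes in darkness (88) and light (67) stayed within 1.5 times under every alternative listed next. They were 90 and 68 with RLE scaling, 82 and 63 with total counts only, 90 and 73 with DESeq2, and 89 and 67 without a filter. They were 78 and 77 in fits of the dark or light libraries alone (75 and 63 also called in the main fit). The light fit tested only 120 of the 154 genes. Over all genes, the dark fit called 1186 higher and 997 lower of 8798, against 1723 and 1941 of 8998 in the main fit. The light fit called 1508 and 1516 of 8405, against 969 and 880 of 8998. The estimated coefficient of variation was 0.335 in the dark fit and 0.144 in the light fit. The background shares above thus hold for the fit to all 12 libraries. Total counts alone moved the median log2 fold change of all genes by 0.28 in darkness, 0.11 in light and -0.17 in the interaction. Omitting 1 library gave 68 to 93 dark calls (20 to 29 higher, 48 to 64 lower) and 49 to 77 light calls (33 to 50 higher, 13 to 27 lower). The interaction count (29) was less stable: 44 with DESeq2 (2 lower), and 12 to 46 over single omissions (12 to 42 higher, 0 to 4 lower). With the replicate block it was 20 (0 lower), beside 78 dark and 62 light calls. Calls kept in all 12 omissions were 67 of 88 in darkness, 43 of 67 in light and 12 of 29 for the interaction. Among alternatives added after seeing the data, leaving out deletion dark library 1 with parent dark library 2 gave 52 interactions (47 higher, 5 lower) and 30 lower light calls, and leaving out deletion light library 1 with parent light library 2 gave 0 lower interactions. Light fold changes turned positive without parent light library 2 and without both light libraries for TrC1166C (1.0 and 0.71), TrE0662C (0.95 and 1.08) and TrA1372C (0.37 and 0.09), none of them called. Over all single omissions these light values ran from -1.19 to 1.0, from -0.82 to 0.95 and from -0.92 to 0.37 in that order. The cause of these shifts was not tested. The rule took 66 genes with a pseudocount of 5, 52 with a ratio limit of 0.1 and 278 with 0.3, against 154, and 142 to 172 over single omissions. Depth limits the light levels most, where the median gene had at most 69.5 counts in a library.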
